A study of Homo sapiens with 2 samples.

Results

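Ribosomes are built in the nucleolus by a large set of proteins that transcribe, modify, cut and fold ribosomal RNA, and 45 genes for such factors were followed here. A probe set, the group of short probes that reports a transcript on an Affymetrix array, was taken for a gene when the platform's annotation names that gene and no other. By this rule 38 of the 45 genes were represented, with 74 probe sets out of 54675 on the array. The 45 genes fall into 8 of the snoRNP core, 14 of the small-subunit processome, 17 of large-subunit assembly and 6 of ribosomal DNA transcription and the nucleolar scaffold. Of these 6, 14, 12 and 6 respectively were represented. The other 7 genes were NOP56, DKC1, BOP1, DDX18, GNL3, PPAN and EBNA1BP2. Probe sets that hold NOP56 are annotated also to the small nucleolar RNAs SNORD57, SNORD86 and SNORD110, those of DKC1 to SNORA56, those of BOP1 to MIR7112 and that of PPAN to the PPAN-P2RY11 readthrough. No value is given for these 7 genes.

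RNA came from CL1-0, an established human lung adenocarcinoma line. Cells treated with an antibody to FSTL1, a secreted glycoprotein, gave 1 array at 0 h and 1 array at 6 h. Per the labels' treatment protocol the cells of both arrays had been selected with puromycin and were stably transduced, and what they carry is not named. With 1 array per time there is no spread between replicates, no test and no p-value, and time in culture and handling cannot be told apart from the antibody. The arrays had median intensities of 45.8 (0 h) and 44.9 (6 h). A background floor was assumed at 45.4, and all 38 genes lay above it on both arrays, with a lowest intensity of 283. The labels name a type II alveolar cell. Of 8 markers of that type with a probe set, 5 lay above the floor on each array (SFTPC, SFTPB, ABCA3, NAPSA and NKX2-1), with a summed intensity of 556 at 0 h and 616 at 6 h for all 8, while SFTPD, LAMP3 and SLC34A2 were below it on both. Of 7 fibroblast markers 2 lay above the floor at 0 h and 1 at 6 h, of 6 endothelial markers 1 on each array, and of 4 leukocyte markers 0. Their summed intensities at 0 h and 6 h were 389 and 328 (fibroblast), 190 and 168 (endothelial) and 100 and 91 (leukocyte). All these markers were dim. The brightest type II marker was ABCA3 (173 and 208) and NAPSA was at 51 and 61, while the fibroblast marker COL1A1 was at 230 and 179. The cell type was not tested.

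In the nucleolus, RNA polymerase I transcribes a long precursor that holds the RNAs of both ribosomal subunits. Small nucleolar ribonucleoproteins (snoRNPs) guide the modification of this precursor, the box C/D class adding methyl groups and the box H/ACA class turning uridine into pseudouridine. The small-subunit processome assembles on the 5′ part and releases the precursor of the small subunit, and a separate series of factors folds and cuts the RNA of the large subunit. Genes of this pathway are known as targets of the transcription factor MYC, which binds the E-box CACGTG, and cancer cells commonly transcribe them at a high rate.

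Promoter windows show how many of these genes carry that E-box. Windows from 250 bases before to 50 bases after a gene's start (RefSeq, GRCh38.p14) were matched by symbol for 36 of the 45 genes, and CACGTG, which reads the same on both strands, was found in those of 19 genes, 52.8%. The share was 8.77% over all 27305 genes with a window and 12.7% over the 10224 genes both measured on the arrays and holding a window. The 21 matches lay close to the start: 14 began at or after it, 4 within 50 bases before it and 3 further upstream. The ETS motif CCGGAAGT, searched on both strands, was in 7 genes, 19.4% against 9.70% of measured genes. A match describes these letters in the window and does not show binding. E-box stretches are shown for 8 genes, chosen from both the lower and the higher values described below, each read in the direction of transcription with the E-box in capitals.
RRP9, chr3:51941892-51941921, minus strand: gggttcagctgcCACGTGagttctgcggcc
NOC3L, chr10:94362903-94362932, minus strand: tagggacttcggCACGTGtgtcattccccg
MRTO4, chr1:19251807-19251836, plus strand: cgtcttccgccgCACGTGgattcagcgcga
PES1, chr22:30591880-30591909, minus strand: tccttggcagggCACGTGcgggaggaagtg
GAR1, chr4:109815781-109815810, plus strand: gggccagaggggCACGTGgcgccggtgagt
FBL, chr19:39846356-39846385, minus strand: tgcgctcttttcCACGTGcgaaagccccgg
WDR43, chr2:28894658-28894687, plus strand: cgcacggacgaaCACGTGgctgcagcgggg
DDX21, chr10:68956604-68956633, plus strand: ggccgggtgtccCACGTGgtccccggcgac

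Nucleolar factors as a group differed little between the arrays, and the differences that did appear were mostly lower at 6 h. Each gene is given by its brightest probe set (highest mean of both arrays), as intensity on a linear scale, and a difference is log2 of the 6 h value minus log2 of the 0 h value. The median over the 38 genes was -0.02, where the median over all 12669 genes measured on the arrays was 0.02, and 22 were lower and 16 higher. Of all genes 45.7% were lower and 54.3% higher, and 42.5% were lower among the 6951 genes whose mean lay within the range of the 38. At least 1.2-fold, a log2 difference of 0.26, 2 of the 38 were lower (RRS1 and RRP9) and 1 higher (DDX52), where 5.29% of all genes were lower and 9.90% higher by as much. Among the 6951 genes of similar brightness these shares were 2.33% and 8.68%. The 2 lower genes, 5.26% of 38, were about the share over all genes and above that at similar brightness. The 1 higher gene, 2.63%, was below both. After quantile normalization or a loess curve 4 were lower by as much, and on the next brightest probe set 0 of 17. With the median over a gene's sets 0 were higher by as much. None of the 38 reached 1.5-fold, which 0.182% of all genes did downwards and 0.750% upwards. After quantile normalization 27 of the 38 were lower and 53.4% of all genes, and after a loess curve was taken off 26 and 51.7%.

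**Figure D1:**
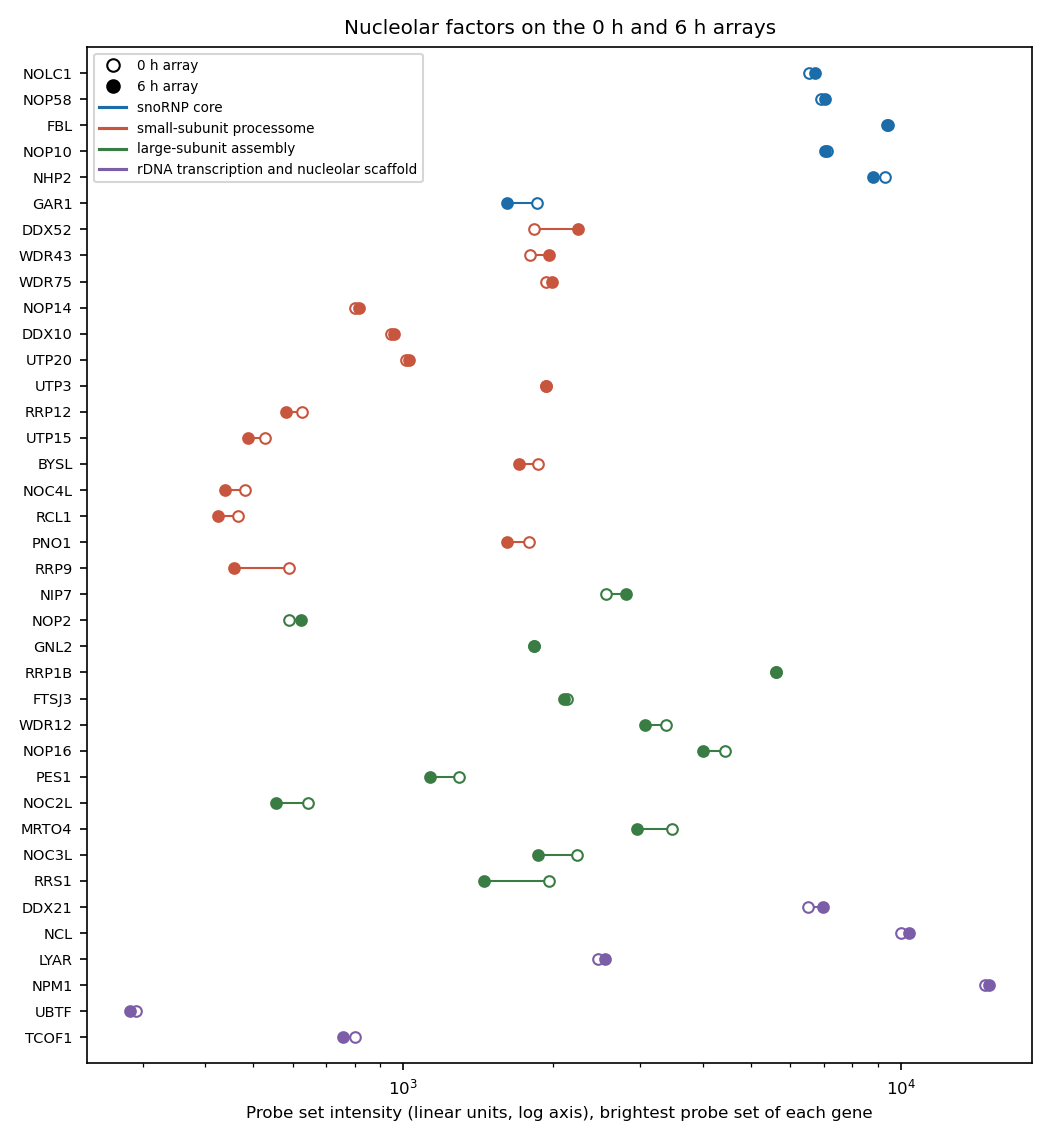
Intensity (linear units on a log axis) of the brightest probe set of the 38 nucleolar genes at 0 h (open) and 6 h (filled), 1 array each, coloured by step. Most pairs nearly coincide, and the widest gap is that of RRS1, from 1969 to 1454; intensities of different genes are not comparable as levels.

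The snoRNP core had a median of -0.003 over 6 genes, 3 higher and 3 lower, and one of -0.05 with the median over a gene's sets. In the box C/D class, fibrillarin (FBL), the methyltransferase, was at 9377 at 0 h and 9442 at 6 h, a difference of 0.01. NOP58, a scaffold of the same particle, was at 6923 and 7034 (0.02). Both box C/D proteins measured in this step were thus nearly level, and NOP56, of the same step, has no value. In the box H/ACA class GAR1 was lower, from 1857 to 1619 (-0.20), a difference that 9.81% of all genes undercut. NHP2 went from 9315 to 8789 (-0.08) and NOP10 from 7113 to 7033 (-0.02). All 3 H/ACA proteins measured had lower values at 6 h, each on a single probe set, where 45.7% of all genes were lower. Of these, NOP10 was nearly level, as FBL and NOP58 were. The pseudouridine synthase of the H/ACA particle, dyskerin (DKC1), is among the genes with no value. NOLC1, a chaperone that carries snoRNPs in the nucleolus, had 3 probe sets that disagreed. Its brightest went from 6537 to 6741 (0.04), the next from 1718 to 1442 (-0.25) and the dimmest from 297 to 276 (-0.11).

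Genes of the small-subunit processome were spread to both sides, with a median of -0.06 over 14 genes, 8 lower and 6 higher. Of all genes 45.7% were lower. RRP9, a protein of the U3 snoRNP that pairs with the precursor, went from 591 to 458, a difference of -0.37 or 1.29-fold lower. Only 1.91% of all genes had a lower difference, and RRP9 has 1 probe set, so nothing on the array checks it. PNO1, which binds the 3′ end of 18S RNA in late particles, went from 1792 to 1620 (-0.14), and its other probe sets were lower as well, so that all 3 lay between -0.14 and -0.06. RCL1, an endonuclease-like factor, went from 466 to 425 (-0.14), but its second probe set was at 0.09. NOC4L, which pairs with NOP14, went from 481 to 439 (-0.13), and NOP14 from 800 to 814 (0.03). Each of these partners rests on a single probe set, and after quantile normalization NOP14 was at -0.02. BYSL, an adaptor of pre-40S particles, went from 1869 to 1709 (-0.13) and UTP15 of the UTP-A subcomplex from 527 to 488 (-0.11), with a second UTP15 probe set at -0.02.

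The clearest higher value in the small-subunit step was that of DDX52, a DEAD-box RNA helicase. It went from 1837 to 2250 (0.29, 1.22-fold), and a second probe set went from 604 to 776 (0.36). The other 2 sets of DDX52 were at -0.01 (694 to 691) and 0.07 (79 to 83), so the gene's probe sets do not give a single answer. WDR43, also of the UTP-A subcomplex, went from 1803 to 1969 (0.13), and its partner WDR75 from 1934 to 1989 (0.04). The helicase DDX10 (946 and 960), UTP20 (1014 and 1028) and UTP3 (1940 and 1936) had differences between -0.003 and 0.02. RRP12, which helps to export both subunits, was the gene whose probe sets differed most. Its brightest was at -0.11 (627 to 581), and 3 dim ones were at 0.37 (59 to 76), -0.12 (67 to 62) and 0.15 (55 to 61), all close to the floor.

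Large-subunit assembly had the lowest values of the steps. Its median was -0.15 over the 12 of its 17 genes that were measured, of which 9 were lower and 3 higher. Of all genes 45.7% were lower, and 42.5% of those of similar brightness. The 37 further large-subunit factors described below had a median of -0.06. RRS1, which brings the 5S ribonucleoprotein into the growing large subunit, went from 1969 to 1454, a difference of -0.44 or 1.35-fold lower on its only probe set. This was the lowest difference of the 38, and 0.963% of all genes had a lower one. NOC3L went from 2236 to 1870 (-0.26), which is 1.196-fold and just short of 1.2-fold. NOC2L, whose yeast counterpart pairs with that of NOC3L, went from 645 to 554 (-0.22), with a second probe set at -0.17. MRTO4, which holds the place of the ribosomal stalk protein on the precursor, went from 3469 to 2952 (-0.23), with a second probe set at -0.25 (841 to 707).

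Of the PeBoW complex, which is needed for cutting the large-subunit precursor, PES1 went from 1297 to 1134 (-0.19) and WDR12 from 3378 to 3057 (-0.14). The 2 dimmer probe sets of WDR12 were higher, both at 0.23 (193 to 226 and 95 to 111), so the sign of WDR12 depends on the probe set. NOP16, a further large-subunit factor, went from 4431 to 4003 (-0.15), and its other probe sets were at -0.19 and -0.07, with 1 more that went from 47 to below the floor. RRP1B (5611 and 5607), the methyltransferase FTSJ3 (2140 and 2110) and the GTPase GNL2 (1829 and 1834) were level within 0.02 on their brightest set. The second set of RRP1B was at -0.23 (182 to 155). The genes with higher values were NIP7, a processing factor, from 2555 to 2806 (0.14, with a second set at -0.05), NOP2, the methyltransferase of 28S RNA, from 591 to 624 (0.08), and GNL2.

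Factors of ribosomal DNA transcription and the nucleolar scaffold had a median of 0.04 over 6 genes, 4 higher and 2 lower. Of all genes 54.3% were higher. The abundant nucleolar proteins nucleolin (NCL), at 10012 and 10373 (0.05), and nucleophosmin (NPM1), at 14746 and 15054 (0.03), were nearly level, and the other NPM1 probe sets were at -0.02 and -0.04. The helicase DDX21 went from 6505 to 6993 (0.10), with its second probe set at 0.11, and LYAR, a nucleolar zinc finger protein, from 2467 to 2551 (0.05), with its second at 0.004. UBTF, the factor that opens ribosomal DNA for RNA polymerase I, was at 290 and 283 (-0.04) on its brightest set. The other 4 UBTF probe sets were lower by more, at -0.18 (230 to 203), -0.33 (137 to 109), -0.31 (114 to 92) and -0.20 (53 to 46). Treacle (TCOF1), which works with UBTF and is mutated in Treacher Collins syndrome, went from 802 to 757 (-0.08), and its 3 probe sets lay between -0.13 and -0.07. The group thus holds level or slightly higher values for the abundant scaffold proteins beside lower ones for UBTF and TCOF1. How much lower UBTF was depends on the set, and with the median over its sets it was at -0.20. On the brightest set 36.5% of all genes undercut UBTF and 26.2% undercut TCOF1, and the UBTF sets that were lower by more are its dimmer ones.

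**Figure D2:**
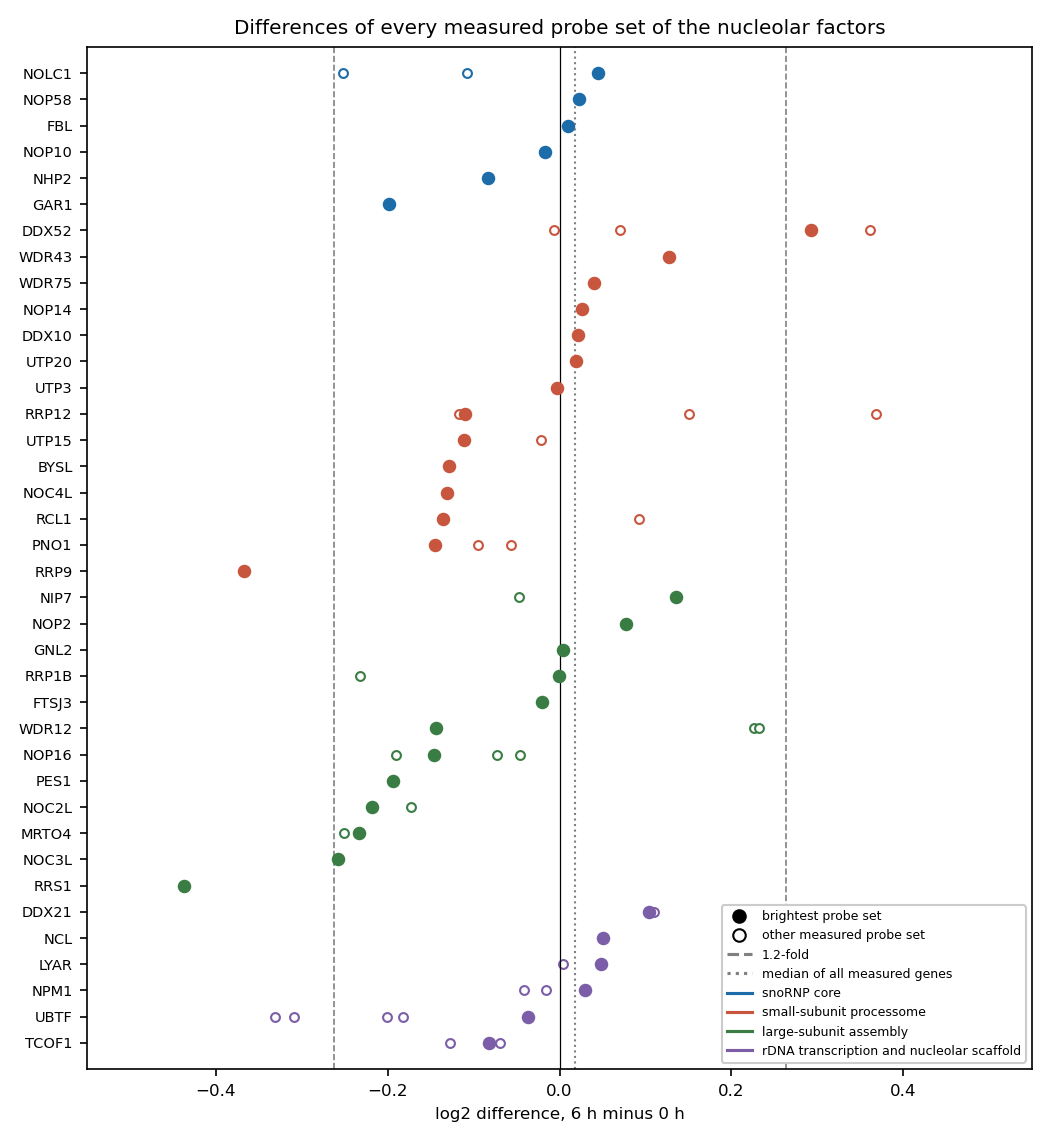
log2 difference (6 h minus 0 h) of the 69 measured probe sets of the 38 genes, ordered within each step, filled for the brightest set of a gene and open for the others; dashed lines mark 1.2-fold and the dotted line the median of all measured genes. RRS1 and RRP9 lie past 1.2-fold on the lower side, DDX52 on the higher side, and all 5 sets of UBTF lie below 0; the NOP16 set nearest to 0 was below the floor at 6 h and is drawn at its bound.

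Several probe sets are annotated to the same gene and give a limited check on the array itself, though not on the cultures. Whether they read the same transcript was not tested, and they can differ widely in brightness, as for RRP1B (5611 and 182 at 0 h). Of the 17 genes with at least 2 measured sets, 8 had every set lower, 2 every set higher and 7 had sets on both sides. Over 6122 such genes on the array, 20.9% had every set lower and 30.4% every set higher. The 8 were UTP15, PNO1, NOP16, MRTO4, NOC2L, RRP1B, UBTF and TCOF1, the 2 were DDX21 and LYAR, and the 7 were NOLC1, DDX52, RCL1, RRP12, WDR12, NIP7 and NPM1. Sets of a gene scattered with a pooled SD of 0.13 in the 17 genes and of 0.16 over all 6122, dim sets included. On their brightest sets 30 of the 38 genes differed by less than 0.16. Lower by more than that were 7, namely RRS1, RRP9, NOC3L, MRTO4, NOC2L, GAR1 and PES1, where 13.6% of all genes and 8.98% of those of similar brightness were. Higher by more than that was 1, DDX52, where 21.1% and 20.3% were. Of the 7, MRTO4 and NOC2L have a second measured set, and it was lower in both.

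Other genes of the pathway, from lists that do not overlap the 45, lay mostly lower at 6 h as well. Of 37 further small-subunit factors 33 had lower and 4 had higher values, and their median was -0.09. The lowest were the late kinase RIOK2, from 919 to 700 (-0.39), and UTP14A, from 902 to 739 (-0.29), and the highest DIMT1, which methylates 18S RNA, from 2141 to 2222 (0.05), and MPHOSPH10, from 1285 to 1315 (0.03). At 1.2-fold 3 of these 37 were lower and 0 higher, the third being UTP25 (-0.28), named after its value was seen. Of all genes 5.29% were lower and 9.90% higher by 1.2-fold, and 45.7% were lower by any amount. Further large-subunit factors, also 37, had 23 lower and 14 higher values and a median of -0.06, and 2 were past 1.2-fold lower, the helicase DDX51, from 349 to 276 (-0.34), and NIFK, from 2969 to 2415 (-0.30). The helicase DDX27, from 1356 to 1605 (0.24), and the remodelling ATPase MDN1, from 776 to 853 (0.14), were the highest of that list. When a gene was taken as the median over its sets, the further large-subunit factors had a median of 0.0004 and the further small-subunit factors one of -0.09.

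RNA polymerase I subunits and initiation factors were lower for 11 of 14 genes, with a median of -0.04. Over all genes 45.7% were lower, and the 25th to 75th percentile ran from -0.09 to 0.14. The median of this list and those of the lists below lie within that range, and the median over all genes was 0.02. The range is one of single genes, and a list median can lie in it though most genes of the list were lower. TAF1D went from 377 to 322 (-0.23) and POLR1B from 2003 to 1737 (-0.21). POLR1A went the other way on its brightest set, from 627 to 734 (0.23), but its 3 sets ranged from -0.41 to 0.23, and those of POLR1B from -0.21 to 0.32. TAF1C was at 301 and 307 (0.03), with a second set at -0.54. On the next brightest probe set, available for 10 of the 14, the median was 0.02. Assembly factors of snoRNPs had a median of -0.02, with 8 of 11 lower, among them SHQ1, a chaperone of dyskerin, from 1273 to 1075 (-0.24), and RUVBL2, from 3965 to 3512 (-0.18). PIH1D1, from 1101 to 1230 (0.16), and RPAP3, from 1649 to 1737 (0.08), which work together with RUVBL2, were the highest of them. The exosome and trimming enzymes were lower for 11 of 15, with a median of -0.04. The lowest were EXOSC5 (929 to 816, -0.19) and EXOSC3 (1799 to 1632, -0.14, with 5 sets from -0.22 to 0.26). The highest were EXOSC1 (1734 to 1897, 0.13) and EXOSC6 (889 to 1131, 0.35, with 3 sets from -0.15 to 0.35).

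**Figure D3:**
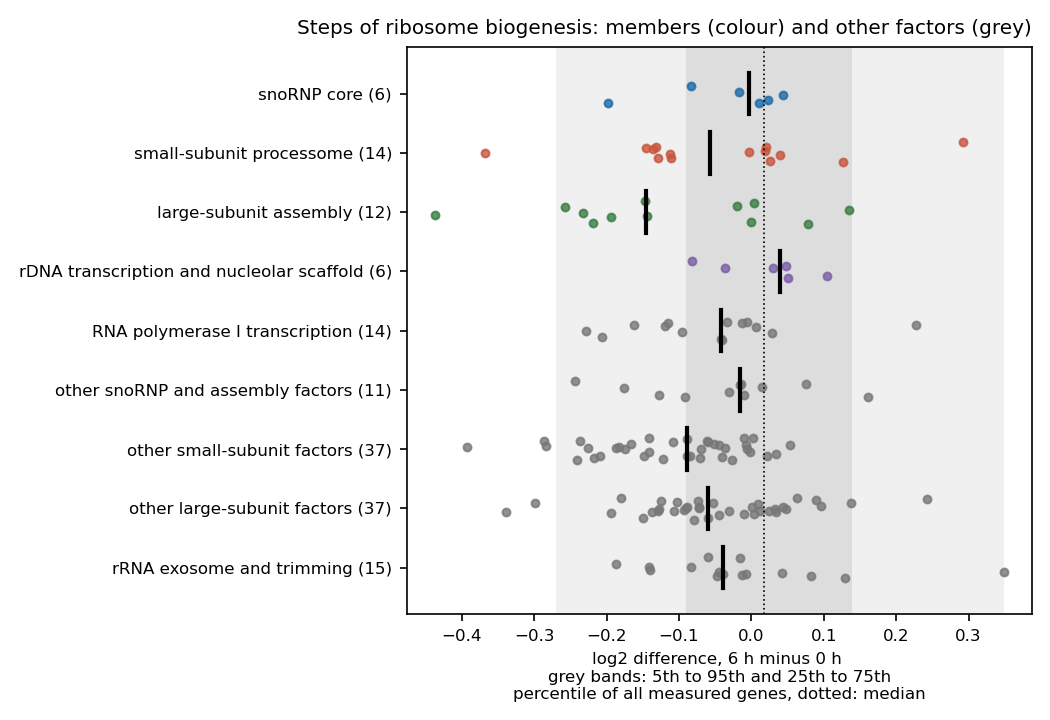
log2 difference (6 h minus 0 h) of the members by step (colour) and of other ribosome biogenesis genes (grey), 1 point per gene on its brightest probe set, the number of genes in brackets and a bar at the median. The grey bands span the 5th to 95th and the 25th to 75th percentile of all measured genes, from -0.27 to 0.35 and from -0.09 to 0.14; the bar of large-subunit assembly, at -0.15, lies below the inner band.

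The product of these factors can be read only in part on the arrays. RNA45SN5, a copy of the ribosomal RNA precursor gene, had 2 probe sets, from 656 to 427 (-0.62) and from 384 to 346 (-0.15). Control probe sets of the mature RNAs disagreed: for 18S the 5′ set was at -0.56, the middle set at -0.34 and the 3′ set at 0.06 (3068 to 3197), and for 28S the 5′ and middle sets were at 0.42 and 0.24, with the 3′ set below the floor on both arrays. Ribosomal RNA carries no poly(A) tail, and its signal in labelled cRNA was not tested as a measure of its level.

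Genes with and without an E-box in the promoter window had similar values. Of the measured nucleolar genes, the 17 with an E-box had a median difference of -0.02 with 9 lower, in a range from -0.37 to 0.13, and the 14 with a window and no E-box had one of -0.03 with 9 lower, in a range from -0.22 to 0.14. The ranges overlap, and RRP9, NOC3L and MRTO4, all with an E-box, lie below the lowest gene without one. RRS1 (-0.44) and DDX52 (0.29), the lowest and the highest of all members measured, have no window and are in neither group. RRP9, NOC3L, MRTO4, PES1 and GAR1, whose sequences stand above, were on the lower side, while FBL was level and WDR43 and DDX21 were higher, with the same 6 letters. Over all measured genes with a window, the medians were 0.02 with an E-box (1299 genes) and 0.02 without (8925 genes). Of these, 44.9% with an E-box and 45.0% without were lower. MYC itself was at 1462 and 1543 (0.08). Its partner MAX was at 1233 and 1209 (-0.03), and the repressor MNT, which competes for MAX, at 575 and 562 (-0.03). MXI1, a repressor of the same network, went from 873 to 1010 (0.21), and MYCL from 88 to 112 (0.34), with its second probe set at -0.20. The 9 measured genes of the network had a median of 0.14, with 6 above and 3 below 0. That median was 0.079 after quantile normalization, 0.078 with the median over a gene's sets and -0.026 on the next brightest set (5 genes), so its sign is not settled.

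**Figure D4:**
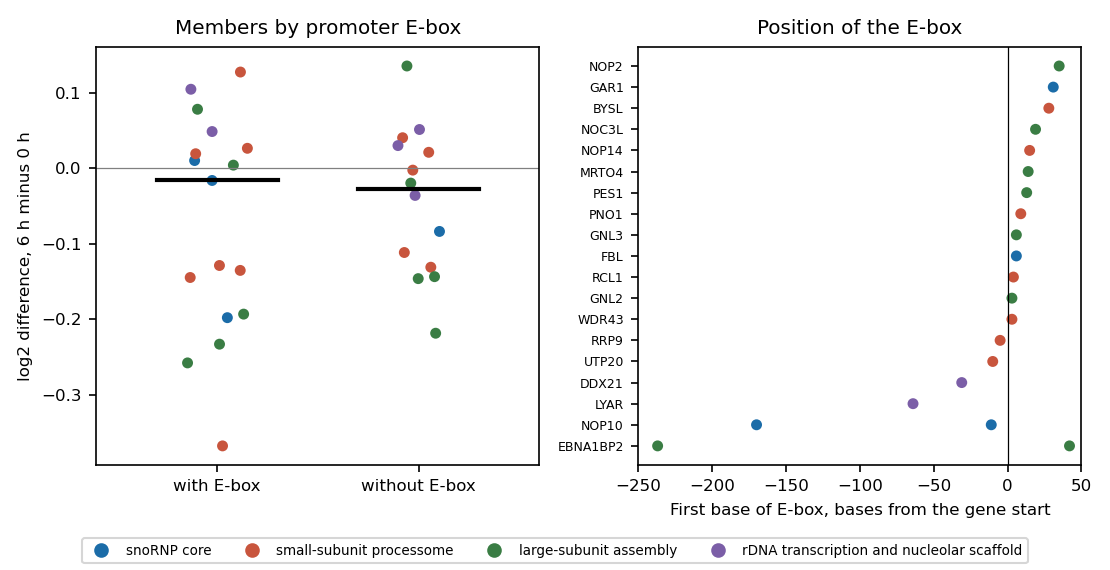
Left, log2 difference (6 h minus 0 h) of the measured members with (17) and without (14) CACGTG in the promoter window, with a bar at each median (-0.02 and -0.03). Right, position of the first base of each of the 21 matches relative to the gene start (0); most lie within 50 bases of it.

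The order of the steps was read under each processing setting. Large-subunit assembly had a median between -0.18 and -0.11 in all 9 alternatives. The small-subunit processome went from -0.09 to 0.01, the snoRNP core from -0.25 (1 gene, on the next brightest probe set) to 0.003, and the transcription and scaffold group from -0.04 to 0.04. Large-subunit assembly was the lowest step in the values as reported and in 8 of the 9 alternatives. The exception is the next brightest probe set, on which the snoRNP core is a single gene. Not all of the 8 could change the order. Both other floors left the step medians as reported, and centring shifts all genes alike. Taking no floor hardly moved them (large-subunit assembly from -0.1451 to -0.1444). The settings that could reorder the steps were quantile normalization, loess, the median over a gene's sets and leaving out _x_at and _s_at sets. The snoRNP core lay above the small-subunit processome as reported. It lay below with the median over a gene's sets (-0.05 and 0.008), on the next brightest set, and without _x_at and _s_at sets (0.003 and 0.008). Among the further factors outside the members the order was the other way as reported. Their median was -0.09 for the small-subunit list and -0.06 for the large-subunit list. Without _x_at and _s_at sets these were -0.071 and -0.074. A difference between steps was not tested, since genes of a step share the same 2 arrays and are not replicates.

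**Figure D5:**
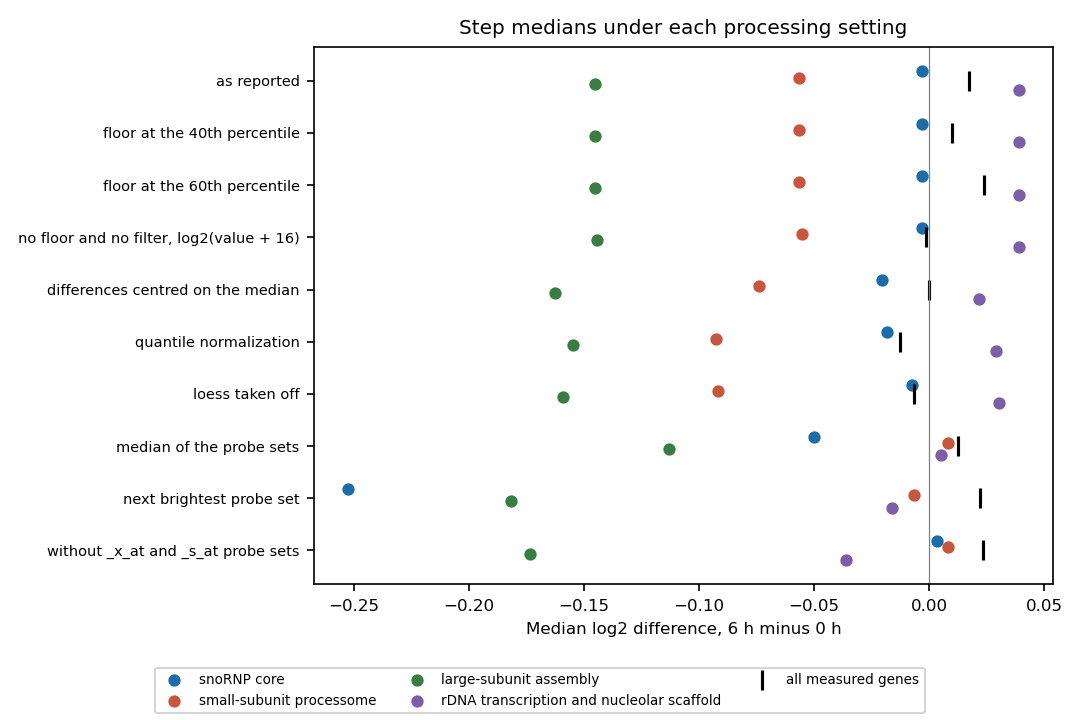
Median log2 difference (6 h minus 0 h) of each step (points) and of all measured genes (bars) under the reported processing and 9 alternatives. Large-subunit assembly stays between -0.18 and -0.11, while the small-subunit processome and the transcription and scaffold group lie on both sides of 0.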

How the data were processed

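The authors deposited linear intensity values per probe set, made with MAS5 per the submitters' processing notes. Its version, and whether the arrays were scaled to a common mean, are not given in the sources used here. The method subtracts local background and mismatch signal, which makes dim values noisy. Probe sets were named through the platform annotation, with symbols updated by Entrez identifier through RefSeq: 41097 had 1 gene (41043 matched), 1801 several and 11777 none, and 62 of all were array controls. Values under the 50th percentile of both arrays together (45.4) were set to it, genes above it on at least 1 array were kept, and log2 differences were taken on the brightest probe set. Each group has 1 array, which limits the precision, so no test was made. A replicate number would be only a name here.

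The members and lists were chosen with earlier results of these data known. Values are given for every measured member, and in each other list for the 2 highest and 2 lowest genes above the floor on both arrays, with RNA45SN5 besides. MYC and UTP25 were added after their values were seen. Alternatives were floors at the 40th and 60th percentile, log2(value + 16) with no floor, centring, quantile normalization, loess (span 0.3), the median or the next brightest of a gene's probe sets, and leaving out sets ending in _x_at or _s_at. Python 3.11.15 with pandas 2.3.3 and statsmodels 0.14.6 was used, and the steps were tested on simulated data.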

Additional observations from a re-analysis of the deposited data

How the results depend on the processing

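Values of single genes moved by more than the scatter between probe sets (SD 0.16) in 10 of 313 cases over 9 alternatives, and 26 of 38 genes kept their sign wherever an alternative gave them a value (genes with 1 probe set have none on the next brightest). Of these 10 cases 7 came from the next brightest probe set, out of 17 genes measured on it, and there DDX52 turned from 0.29 to -0.0067. UBTF moved to -0.20 with the median over its sets. Many of the 313 cases could not move. The floors lie below the brightest set of every member, centring shifts all genes by 0.017, and a gene with 1 measured set keeps its value as the median. On the next brightest set the median over the members was -0.047, 12 were lower and 0 were 1.2-fold lower. The median there was -0.25 for the snoRNP core (1 gene) and -0.0067 for the small-subunit processome (5 genes). Taking the median over a gene's sets left 0 members 1.2-fold higher and the small-subunit processome at 0.0081, as it was without _x_at and _s_at sets (0.0081), where the transcription and scaffold group was at -0.036 (3 genes). After quantile normalization or loess 4 members were 1.2-fold lower. The floor changed nothing for the members, which all lie well above it. No paired analysis was possible because each group has 1 array.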
